A study of Arabidopsis thaliana with 18 samples.

Results

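Cytokinin metabolism and signalling was followed through 37 genes of Arabidopsis thaliana, which make up 6 families. The genes were taken by their identifiers from a list: 4 isopentenyltransferases (IPT), 7 LONELY GUY (LOG) genes, 7 cytokinin oxidases (CKX), the 3 receptor kinases AHK2, AHK3 and AHK4, 6 histidine phosphotransfer (AHP) genes and 10 type-A response regulators (ARR). All 37 identifiers were found in the RefSeq annotation of Arabidopsis. Of the 8444 genes that stood in at least 1 of the deposited tables, 22 belonged to this set: 2 of 4 IPT, 6 of 7 LOG, 4 of 7 CKX, 1 of 3 AHK, 2 of 6 AHP and 7 of 10 type-A ARR genes. The other 15 stood in none and were therefore below the limits of every comparison. They were IPT1 (AT1G68460), IPT3 (AT3G63110), LOG2 (AT2G35990), CKX2 (AT2G19500), CKX5 (AT1G75450), CKX7 (AT5G21482), AHK2 (AT5G35750), AHK3 (AT1G27320), AHP2 (AT3G29350), AHP3 (AT5G39340), AHP4 (AT3G16360), AHP5 (AT1G03430), ARR7 (AT1G19050), ARR8 (AT2G41310) and ARR17 (AT3G56380). A gene in no table may be absent from the cells or present at like levels in all of them, and the tables do not tell these apart. The share of all annotated genes that stood in any table was not computed. Whether 22 of 37 is more or less than for genes in general is therefore not known.

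Messenger RNA was sequenced from 6 populations of protoplasts, plant cells without their walls, which were sorted by fluorescence from shoot apical meristems (SAMs). All plants carried the ap1cal mutations, which make meristems accumulate in place of flowers, and were harvested at an age of 4 to 5 weeks without further treatment. The labels give short days as the growth condition, whereas the methods of the study give continuous light for all its plants. All populations came from 1 reporter line with a blue protein driven by the AtML1 promoter of the epidermis, a yellow fusion of the HD-ZIPIII factor REVOLUTA (REV) under its own promoter and a green protein driven by the promoter of miR165a. Epidermal miR165a cells were blue and green, epidermal REV cells blue and yellow, and epidermal gap cells blue alone. Subepidermal miR165a cells were green alone, subepidermal REV cells yellow alone, and all negative cells had none of the 3 colours. The yellow reporter is an added copy of REV, so every population also came from plants with extra REV. Each population had 3 libraries in the labels and in the methods of the study, while the design text gives 4 replicates. They are called biological, and whether the harvests were separate is not said, so the p-values measure the spread between these libraries.

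Cytokinins are adenine-derived hormones that keep the shoot meristem dividing. IPT enzymes make the precursor nucleotides, LOG enzymes release the active base from them and CKX enzymes break the base down. The AHK receptors sense the hormone and pass phosphate through AHP proteins to type-B response regulators, which switch on target genes such as the type-A ARRs, themselves inhibitors of the pathway.

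The deposited tables name, for each pair of populations, the genes that passed 2 limits, an adjusted p of at most 0.05 and a size of at least 1 for the log2 fold change (FC). Here such a gene is called higher or lower, in the population named first, and each FC is followed by ± its standard error (SE). The p-values are those of the authors' Wald test in DESeq2, two-sided and adjusted by the Benjamini-Hochberg method over all their genes. The 15 tables for the 15 pairs come from 1 fit on all 6 populations. Since FCs in that fit add up between populations, a level could be given in each population for the 13 genes whose listed pairs link all 6. This level is an estimate of the mean normalized count, the mean number of reads per library after scaling for depth, rebuilt from the FCs and the mean over all libraries. Whether the FCs of that fit were shrunk towards 0 is not stated. Their SEs stop near a common ceiling of 0.729, and levels of genes with few reads depended on the fit, as given for ARR5. The level is not divided by gene length, so levels are compared between populations and not between genes. A FC called implied is one for a pair that was not listed, added up from the listed ones. The tables hold no value per library, so neither the values of single replicates nor the depth of a library can be shown, and the SE stands for the spread.

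Marker genes of the sorted cells were checked on the same scale. The summed level of the epidermal genes ATML1, PDF1 and PDF2 (3 of 3 measured) lay between 19325 and 22820 in the 3 epidermal populations and between 345 and 511 in the 3 subepidermal ones, and all 3 had a level in every population. Abaxial genes (3 of 3) summed to 1054 and 1418 in epidermal and subepidermal miR165a cells, against 108 and 109 in epidermal and subepidermal REV cells, and to 727 in epidermal gap and 1221 in all negative cells, nearer to the miR165a than to the REV cells. Of the 3 meristem genes CLV3, STM and WUS, 2 had a level in every population, CLV3 and STM. Their sum was 315 in epidermal miR165a, 1229 in epidermal REV and 764 in epidermal gap cells. Below the epidermis it was 397 in miR165a, 1118 in REV and 737 in all negative cells. STM had a mean count of 725 and CLV3 of 35.4, so STM weighs most in these sums. In epidermal miR165a against epidermal REV cells the FC was -5.78 ± 0.59 for CLV3 and -1.77 ± 0.14 for STM. Vascular precursor genes (7 of 7) summed to 598 in subepidermal miR165a, 4826 in subepidermal REV and 1479 in all negative cells. In the epidermis the same sum was 895 in miR165a, 2012 in REV and 1573 in gap cells. MP had the largest mean count of the 7, at 1315, followed by OPS at 181, so MP weighs most in these sums. Between epidermal miR165a and epidermal REV cells only MP and PXY of the 7 were called. Of 5 wounding and heat genes 4 stood in the tables, and the 2 with a level, VSP1 and HSP101, summed to 13282 in epidermal miR165a, 2276 in epidermal REV and 5173 in epidermal gap cells, against 8214 to 9643 in the 3 subepidermal populations. MIR165A was in no table. These are bulk samples, in which fewer cells of a type and less RNA per cell cannot be told apart, and the part of vascular or stressed cells in the differences given here was not tested.

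Across the miR165a and REV domains of the epidermis the cytokinin genes split. In epidermal miR165a against epidermal REV cells, 5 genes were higher (IPT7, LOG5, CKX3, CKX4 and ARR5) and 5 were lower (LOG4, LOG7, CKX1, AHP6 and ARR4). The 5 and 5 are 22.7% of the 22 genes in each direction, beside 29.4% of all 8444 genes higher and 12.9% lower. Against epidermal gap cells, epidermal miR165a cells had 4 higher (IPT7, LOG5, CKX4 and ARR5) and 2 lower (LOG7 and AHP6), beside backgrounds of 9.19% and 5%. All 6 of these had the same direction against REV cells, a comparison that shares the miR165a libraries. The share of all genes with the same direction in both comparisons was not computed. The study reports a like trend in both for most genes that differed in epidermal miR165a cells, outside certain clusters. Epidermal REV cells were higher than gap cells in 2 genes, LOG4 and LOG7, beside 3.65% of all genes, and lower in 0, beside 12.6%.

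Below the epidermis most calls were of genes higher in the REV domain. In subepidermal miR165a against subepidermal REV cells only IPT7 was higher, beside 12.9% of all genes, and 6 genes were lower (LOG1, LOG7, CKX6, AHP6, ARR5 and ARR9), beside 12.5%. The 6 are 27.3% of the 22. Subepidermal miR165a against all negative cells gave 0 higher genes, beside 1.3%, and 2 lower genes (AHP6 and ARR15), beside 3.77%. Subepidermal REV against all negative cells gave 4 higher genes (LOG1, LOG3, LOG7 and ARR9), beside 8.81%, and 0 lower genes, beside 9.01%. The tables hold only genes past the limits, so a count at an unadjusted p cannot be set beside the counts of 0. The summed vascular level was also highest in subepidermal REV cells, as given above, and its part was not tested.

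For 4 of the pairs the authors also deposited a fit on those 2 populations alone, and some calls depended on the fit. In subepidermal miR165a against subepidermal REV cells that fit listed 0 higher cytokinin genes, beside 12.8% of all genes, and 7 lower, beside 12.3%. IPT7, the only higher gene in the fit on all populations, was not listed there, LOG3 was added, and 6 genes were shared. In epidermal miR165a against epidermal REV cells it listed 5 higher, beside 28.2%, and 4 lower, beside 12.8%, which were the same genes without CKX1. In subepidermal REV against all negative cells it listed the same 4 higher genes, beside 8.49%, and 1 lower, AHP1, beside 8.81%. In epidermal REV against epidermal gap cells LOG4 and LOG7 were again the 2 higher genes, beside 3.74%, with 0 lower, beside 11.1%.

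Between the layers more cytokinin genes were called lower than higher in the epidermis, as were more of all genes. In the miR165a domain, epidermal against subepidermal cells gave 3 higher (IPT7, LOG7 and ARR16) and 4 lower genes (LOG1, LOG8, ARR4 and ARR6), beside 11.9% and 12.7%. In the REV domain the epidermal cells were higher in 4 genes (IPT7, LOG4, LOG7 and AHP6), beside 12.5%, and lower in 10 (IPT5, LOG1, LOG3, LOG5, LOG8, CKX3, CKX6, AHP1, ARR5 and ARR9), beside 31.9%. Epidermal gap against all negative cells gave 4 higher (IPT7, LOG7, AHP6 and ARR16) and 7 lower (LOG1, LOG5, LOG8, CKX6, AHP1, ARR4 and ARR5), beside 15.6% and 23%. The 2 genes higher in the epidermis in all 3 of these comparisons were IPT7 and LOG7. The 2 lower in all 3 were LOG1 and LOG8. The share of all genes called in the same direction in all 3 was not computed. Whether this overlap exceeds the general difference between the layers is therefore not known.

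The 6 pairs that cross both layer and domain also gave more genes lower than higher in the epidermal population. Epidermal miR165a cells were higher than subepidermal REV cells in 3 genes and lower in 9, beside 19.1% and 18.6%, and the 9 are 40.9% of the 22. They were higher than all negative cells in 4 and lower in 5, beside 13.8% and 16%. Epidermal REV cells were higher than subepidermal miR165a cells in 5 and lower in 9, beside 20.9% and 37.8%. They were higher than all negative cells in 3 and lower in 8, beside 22.7% and 40.1%, so here the cytokinin genes were called at shares below the background. Epidermal gap cells were higher than subepidermal miR165a cells in 4 and lower in 5, beside 14.6% and 21.6%, and against subepidermal REV cells the counts were 3 and 7, beside 14.6% and 19.4%.

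**Figure D1:**
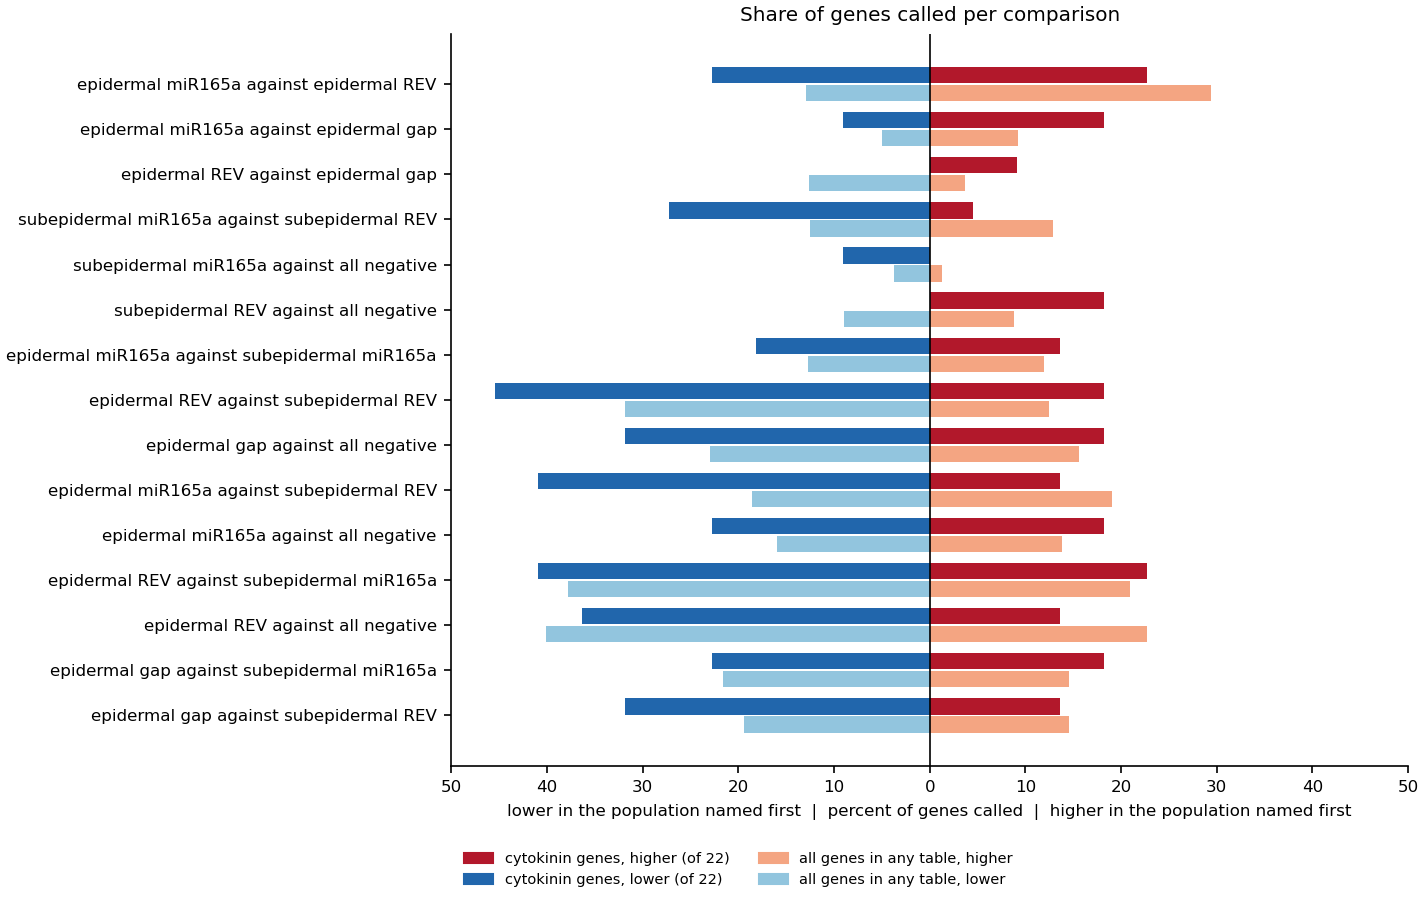
Percent of genes called per comparison, for the 22 cytokinin genes found in any table (dark bars) and all 8444 genes found in any table (light bars). Bars to the right are genes higher and bars to the left genes lower in the population named first, and the longest dark bar is the 45.5% of cytokinin genes lower in epidermal REV than in subepidermal REV cells.

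Cytokinin synthesis begins with the IPT enzymes, of which IPT7 (AT3G23630) had 9 of the 11 listings. Its level was 62.5 in epidermal miR165a, 10.3 in epidermal REV and 14.6 in epidermal gap cells, and 7.88 in subepidermal miR165a, 2.01 in subepidermal REV and 5.28 in all negative cells. The level was highest in the miR165a cells of each layer and higher in the epidermis than in the cells of the same domain below it. The FC was 2.60 ± 0.53 in epidermal miR165a against epidermal REV cells (adjusted p = 7.60e-06) and 2.10 ± 0.52 against gap cells (adjusted p = 0.00107), both by the authors' Wald test in DESeq2. Below the epidermis the FC of miR165a against REV cells was 1.97 ± 0.64 (adjusted p = 0.0155 by the same test), a call that is lost in the fit on those 2 populations alone. Between the layers it was 2.99 ± 0.54 in the miR165a domain, 2.36 ± 0.63 in the REV domain and 1.47 ± 0.57 for gap against all negative cells. Its largest difference lay across domain and layer, where epidermal miR165a cells exceeded subepidermal REV cells 31.1-fold, with a FC of 4.96 ± 0.61. The other listed FCs were 3.57 ± 0.56 for epidermal miR165a against all negative and 2.86 ± 0.62 for gap against subepidermal REV cells. In the order of levels, epidermal gap, epidermal REV, subepidermal miR165a and all negative cells stood next to each other without a call between neighbours, with differences of 0.51 ± 0.54, 0.39 ± 0.56 and 0.58 ± 0.59.

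IPT5 (AT5G19040), another isopentenyltransferase, passed in 2 comparisons. It was lower in epidermal REV cells than in subepidermal miR165a cells, with a FC of -1.25 ± 0.42, and than in subepidermal REV cells, with -1.09 ± 0.42. The 2 measured IPT genes thus differed in direction between epidermal and subepidermal REV cells.

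The LOG genes, whose enzymes turn cytokinin nucleotides into the active base, had the most calls of the 6 families, 47 of the 128 listings of the 22 genes. The number of listings per gene over all 8444 genes was not computed. Whether any family was listed more often than genes in general is therefore not known. Mean normalized counts ran from 16.1 for LOG3 to 1990 for LOG5 in the listed LOG genes. In the listed type-A ARRs they ran from 2.89 for ARR16 to 45.6 for ARR4. The part of read number in the calls per family was not tested. LOG7 (AT5G06300, RefSeq TAIR10.1 chr5:1921548-1925407, minus strand) was called in 13 of the 15 comparisons. Its level was 122 in epidermal miR165a, 794 in epidermal REV and 256 in epidermal gap cells, and 38.2 in subepidermal miR165a, 313 in subepidermal REV and 56.3 in all negative cells. In both layers the REV cells stood highest and the miR165a cells lowest, with the marker-free cells between them. The FC of miR165a against REV cells was -2.70 ± 0.24 in the epidermis (adjusted p = 1.85e-27) and -3.04 ± 0.26 below it (adjusted p = 1.38e-28) in the authors' Wald test in DESeq2, levels 6.49-fold and 8.20-fold lower. REV cells were higher than marker-free cells by 1.63 ± 0.23 in the epidermis and by 2.48 ± 0.25 below it. Epidermal miR165a cells were lower than gap cells at -1.07 ± 0.24, whereas the implied FC of subepidermal miR165a against all negative cells was -0.56 ± 0.28. LOG7 was also higher in the epidermis within each domain, at 1.68 ± 0.27 in miR165a cells, 1.34 ± 0.23 in REV cells and 2.18 ± 0.25 in gap against all negative cells. Across layer and domain the FC of epidermal REV cells was 4.38 ± 0.26 against subepidermal miR165a cells, a 20.8-fold difference, and 3.82 ± 0.25 against all negative cells. Gap cells exceeded subepidermal miR165a cells by 2.74 ± 0.26. Epidermal miR165a cells exceeded all negative cells by 1.12 ± 0.26 and stood at -1.36 ± 0.24 against subepidermal REV cells. Between subepidermal REV and epidermal gap cells, neighbours in the order of levels, the implied difference was 0.29 ± 0.23.

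LOG5 (AT4G35190, chr4:16746189-16748455, plus strand) had another pattern. Its level was 1463 in epidermal miR165a, 329 in epidermal REV and 618 in epidermal gap cells, and 2587 in subepidermal miR165a, 4591 in subepidermal REV and 2353 in all negative cells. REV cells were thus the lowest of the 3 populations in the epidermis and the highest of the 3 below it. The FC of epidermal miR165a cells was 2.15 ± 0.23 against epidermal REV cells (adjusted p = 1.09e-19) and 1.24 ± 0.22 against gap cells (adjusted p = 1.60e-06), by the authors' Wald test in DESeq2. In the subepidermis no pair was listed, and the implied FC of miR165a against REV cells was -0.83 ± 0.22. Within the REV domain the epidermal cells were 14.0-fold lower, with a FC of -3.80 ± 0.23, and gap cells stood at -1.93 ± 0.22 against all negative cells. Epidermal REV cells were also lower than subepidermal miR165a cells at -2.98 ± 0.23 and than all negative cells at -2.84 ± 0.23. Gap cells were lower at -2.07 ± 0.22 against subepidermal miR165a and -2.89 ± 0.22 against subepidermal REV cells, and epidermal miR165a cells at -1.65 ± 0.22 against subepidermal REV cells.

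The 250 bases before the annotated starts of LOG7 and LOG5 are shown together because both LOG genes varied strongly between the domains, and in the epidermis in opposite directions. Capitals mark AGATT or GGATT and their complements AATCT and AATCC, the core letters that type-B response regulators are known to bind.
LOG7 chr5:1925408-1925657, minus strand: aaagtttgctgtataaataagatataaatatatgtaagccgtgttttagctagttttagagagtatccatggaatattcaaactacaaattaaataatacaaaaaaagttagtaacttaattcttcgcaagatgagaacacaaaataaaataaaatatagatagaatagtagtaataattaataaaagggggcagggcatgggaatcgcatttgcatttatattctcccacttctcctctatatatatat
LOG5 chr4:16745939-16746188, plus strand: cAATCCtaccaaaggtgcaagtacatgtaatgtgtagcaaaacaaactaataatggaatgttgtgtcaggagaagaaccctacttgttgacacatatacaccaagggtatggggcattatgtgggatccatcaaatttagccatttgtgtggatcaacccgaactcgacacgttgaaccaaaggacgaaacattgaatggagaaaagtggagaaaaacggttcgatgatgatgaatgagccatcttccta
LOG5 held 1 GGATT and LOG7 none of the letters searched. Over windows of 300 bases, 250 before to 50 after the start, AGATT on either strand was in 25 of the 37 cytokinin genes (67.6%) and in 69.7% of 27443 Arabidopsis genes, and GGATT in 18 (48.6%) and in 44.1%. The longer AAGATT, which contains AGATT, was in 15 (40.5%) and in 34.7%. Such short words are frequent by their length, and a match or its absence in this window is only a description.

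LOG1 (AT2G28305, chr2:12081023-12084678, plus strand) marked the subepidermis. Its level was 14.4 in epidermal miR165a, 23.2 in epidermal REV and 14.1 in epidermal gap cells, and 67.4 in subepidermal miR165a, 217 in subepidermal REV and 107 in all negative cells. All 3 epidermal populations stood below all 3 subepidermal ones. The subepidermal REV cells were the highest, and the FC was -1.69 ± 0.30 in subepidermal miR165a against subepidermal REV cells (adjusted p = 3.35e-07) and 1.02 ± 0.29 in subepidermal REV against all negative cells (adjusted p = 0.00560) by the authors' Wald test in DESeq2. Between the layers the FC was -2.22 ± 0.37 in the miR165a domain, -3.23 ± 0.32 in the REV domain and -2.92 ± 0.34 in gap against all negative cells. The 6 crossed pairs were listed too, with FCs between -1.54 ± 0.33 for epidermal REV against subepidermal miR165a cells and -3.94 ± 0.34 for gap against subepidermal REV cells. Within the epidermis no pair passed, and the implied FC of epidermal miR165a against epidermal REV cells was -0.68 ± 0.39.

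LOG4 (AT3G53450) marked the epidermal REV cells. Its level was 164 in epidermal miR165a, 464 in epidermal REV and 144 in epidermal gap cells, and 113 in subepidermal miR165a, 206 in subepidermal REV and 116 in all negative cells. All 5 calls of LOG4 involved the epidermal REV cells, which exceeded each of the other populations. Epidermal miR165a cells stood at -1.50 ± 0.37 against them (adjusted p = 0.000348 by the authors' Wald test in DESeq2). The FC of epidermal REV cells was 1.68 ± 0.37 against gap, 1.17 ± 0.37 against subepidermal REV and 2.04 ± 0.37 against subepidermal miR165a cells, and epidermal REV cells also exceeded all negative cells (adjusted p = 5.58e-07 by the authors' Wald test in DESeq2). The locus overlaps another annotated gene (AT3G08340).

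LOG8 was higher below the epidermis, and LOG3 was higher in subepidermal REV cells. LOG8 (AT5G11950) had a level of 35.2 in epidermal miR165a, 46.5 in epidermal REV and 32.4 in epidermal gap cells, and 73.6 in subepidermal miR165a, 127 in subepidermal REV and 68.3 in all negative cells. The epidermal populations were all below the subepidermal ones, at -1.06 ± 0.27 in the miR165a domain, -1.45 ± 0.24 in the REV domain and -1.08 ± 0.25 in gap against all negative cells. The listed crossed FCs were -1.85 ± 0.26 for epidermal miR165a against subepidermal REV, -1.18 ± 0.25 for gap against subepidermal miR165a and -1.97 ± 0.25 for gap against subepidermal REV cells. The other crossed pairs were only implied. Epidermal miR165a cells were at -0.96 ± 0.27 against all negative cells. Epidermal REV cells were at -0.55 ± 0.25 against all negative and -0.66 ± 0.25 against subepidermal miR165a cells. Within a layer no pair of LOG8 was listed. LOG3 (AT2G37210) was called in 3 comparisons, all with subepidermal REV cells as the higher population, and its largest FC was -1.85 ± 0.60 for epidermal REV against subepidermal REV cells. In a separate fit on the subepidermal miR165a and REV populations alone, LOG3 was also lower in the miR165a cells of the subepidermis than in its REV cells, at -1.47 ± 0.51 (adjusted p = 0.0279 by the authors' Wald test in DESeq2), with a level of 14.3 in miR165a and 39.7 in REV cells. That pair was not listed in the fit on all populations. LOG3 and LOG4 share coding stretches of up to 41 identical bases, with 87.7% identity over aligned coding bases. The same length was shared by ARR3 and ARR4, with 83.7% identity, and by ARR8 and ARR9, with 81.3%. The longest shared stretch was 45 bases in AHP2 and AHP3, with 85.5% identity. How reads from such stretches were counted is not stated, and their part in the values was not tested.

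**Figure D2:**
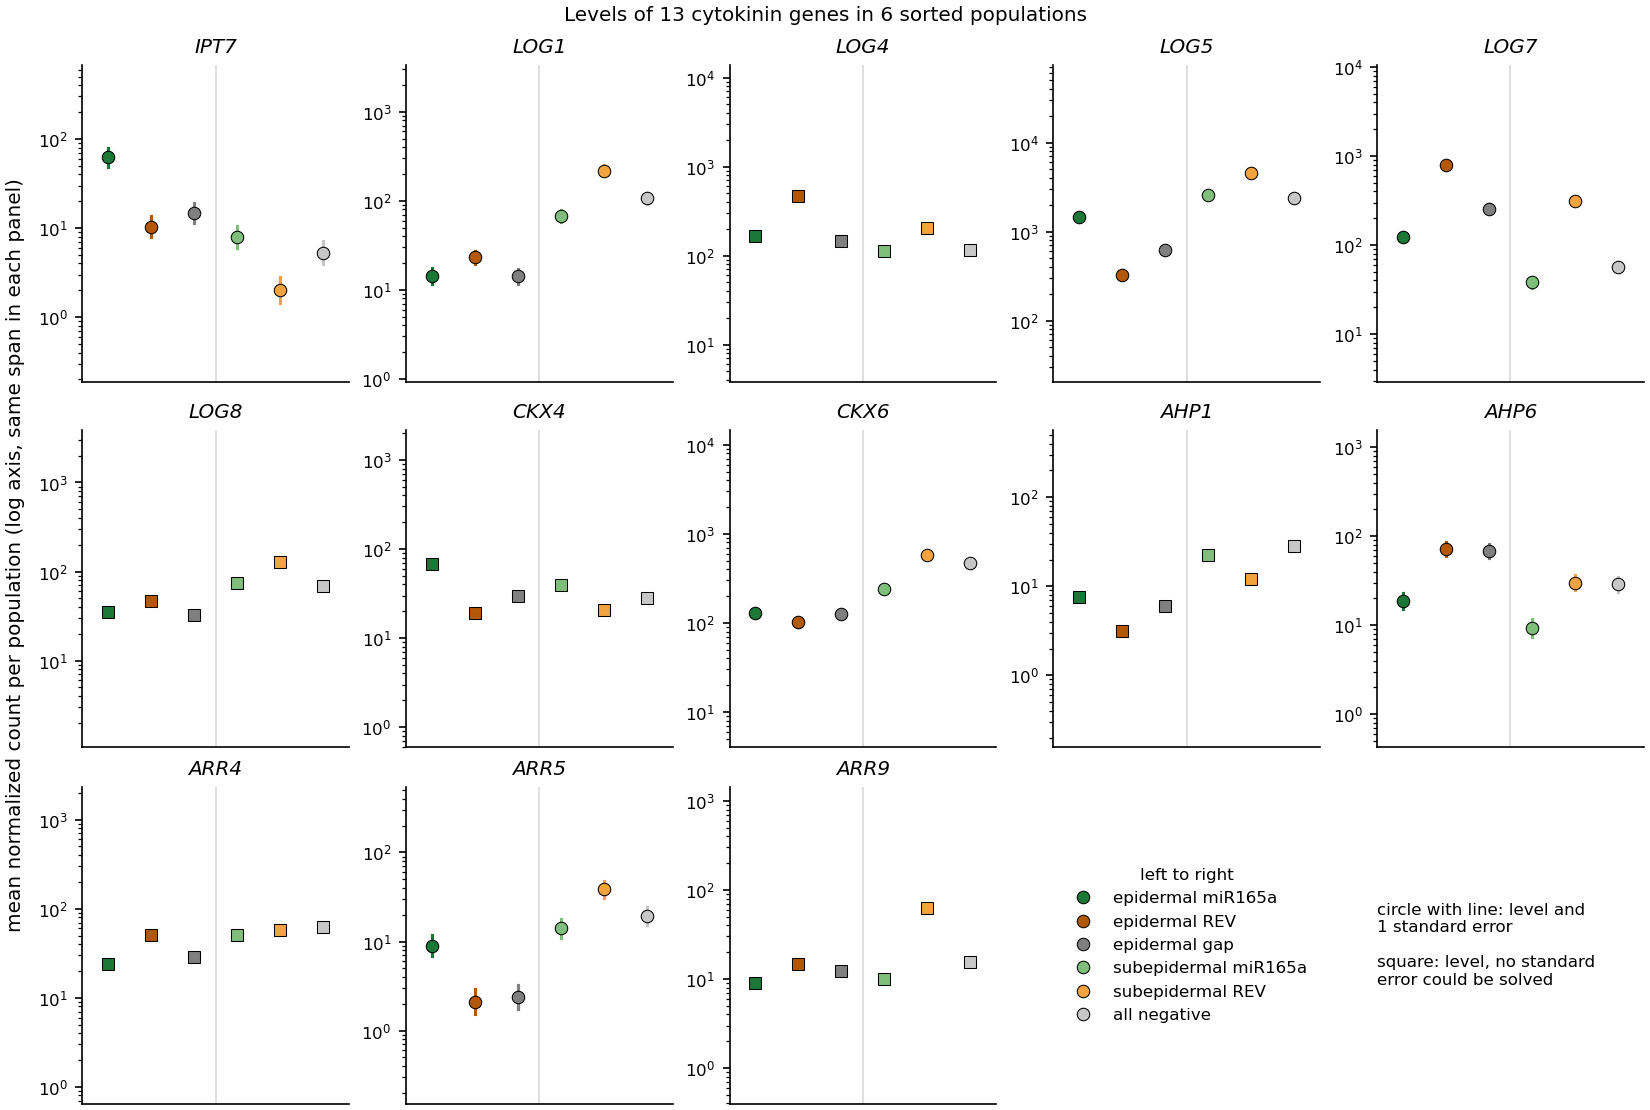
Level of each of 13 cytokinin genes in the 6 populations, as mean normalized count on a log axis that spans the same factor in every panel, with epidermal populations left and subepidermal populations right of the grey line. Lines show 1 SE where it could be solved. Within each layer LOG7 stands highest in the REV cells and IPT7 in the miR165a cells. Below the epidermis the lead of IPT7 in miR165a over all negative cells is an implied 0.58 ± 0.59. LOG1 stands above the epidermis in all 3 subepidermal populations.

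The CKX enzymes, which degrade cytokinin, had 19 listings over 4 genes. CKX6 (AT3G63440) had a level of 128 in epidermal miR165a, 102 in epidermal REV and 125 in epidermal gap cells, and 237 in subepidermal miR165a, 577 in subepidermal REV and 471 in all negative cells. The 3 epidermal populations lay close together, with implied neighbour differences of 0.03 ± 0.23 and 0.30 ± 0.22, and stood below the subepidermal ones. In the subepidermis miR165a cells were lower than REV cells at -1.28 ± 0.21 (adjusted p = 2.83e-08 by the authors' Wald test in DESeq2), and their implied FC against all negative cells was -0.99 ± 0.21, just under the limit. Epidermal REV cells stood at -2.51 ± 0.22 against subepidermal REV, -2.21 ± 0.22 against all negative and -1.22 ± 0.22 against subepidermal miR165a cells. Gap cells stood at -1.91 ± 0.21 against all negative and -2.20 ± 0.21 against subepidermal REV cells. Epidermal miR165a cells stood at -2.17 ± 0.22 against subepidermal REV and -1.87 ± 0.22 against all negative cells. Against subepidermal miR165a cells the implied FC was -0.89 ± 0.22 for epidermal miR165a and -0.92 ± 0.22 for gap cells, neither of them listed. CKX6 overlaps another annotated gene (AT3G63445), and the kit used for sorted cells is not described as marking strand.

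CKX4 (AT4G29740) was highest in epidermal miR165a cells. Its level was 67.1 in epidermal miR165a, 19.1 in epidermal REV and 29.8 in epidermal gap cells, and 39.0 in subepidermal miR165a, 20.4 in subepidermal REV and 27.9 in all negative cells. The FC of epidermal miR165a cells was 1.81 ± 0.37 against epidermal REV (adjusted p = 9.53e-06), 1.17 ± 0.36 against gap, 1.71 ± 0.37 against subepidermal REV and 1.27 ± 0.36 against all negative cells, in the authors' Wald test in DESeq2. The fifth call was epidermal REV against subepidermal miR165a cells, at -1.03 ± 0.38. Between epidermal and subepidermal miR165a cells the implied FC was 0.78, with no call and no SE. CKX3 (AT5G56970) was called in 4 comparisons, in each of which epidermal REV cells were the lower population, and its largest FC was -2.37 ± 0.60 for epidermal REV against subepidermal REV cells. Epidermal miR165a cells exceeded epidermal REV cells by 2.25 ± 0.61, and by 2.86 ± 0.95 in the fit on those 2 populations alone. CKX1 (AT2G41510) went the other way in the epidermis, with -1.30 ± 0.53 in miR165a against REV cells (adjusted p = 0.0397 by the authors' Wald test in DESeq2), and was not listed for that pair in the fit on those 2 populations alone. CKX1 overlaps 2 annotated genes on the other strand (AT2G41505 and AT2G41515). In the fit on all populations the epidermal miR165a cells thus held more CKX3 and CKX4 and less CKX1 transcript than the epidermal REV cells. The wounding and heat genes also differed between these cells, as given above. CKX3 rests on few reads, with a mean of 6.98 over all populations. Its level in epidermal REV cells was 1.47 in the fit on 2 populations.

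The receptors varied little past the limits. AHK4 (AT2G01830), a cytokinin receptor, was called once, lower in epidermal miR165a than in subepidermal REV cells at -1.08 ± 0.14 (adjusted p = 8.19e-13 by the authors' Wald test in DESeq2), and AHK2 and AHK3 were in no table.

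Of the AHP genes AHP6 (AT1G80100, chr1:30133718-30134937, plus strand) had 10 calls, AHP1 (AT3G21510) had 6, and the other 4 had none. AHP6 is known as a pseudo-phosphotransfer protein that inhibits cytokinin signalling, since it lacks the histidine that takes up phosphate, while AHP1 to AHP5 carry it. The 45 coding bases around that codon are shown, from RefSeq TAIR10.1, because they set apart the family member with most of the calls. Capitals mark the aligned codon, CAT for histidine and AAT for asparagine, which is H79N when positions are counted from 1 at the first codon of AHP1.
AHP6: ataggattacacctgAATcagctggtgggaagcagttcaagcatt
AHP1: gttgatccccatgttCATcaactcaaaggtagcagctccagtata
AHP2: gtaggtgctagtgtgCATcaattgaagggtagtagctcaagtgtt
AHP3: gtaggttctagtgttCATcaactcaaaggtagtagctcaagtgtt
AHP4: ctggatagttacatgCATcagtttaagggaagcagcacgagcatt
AHP5: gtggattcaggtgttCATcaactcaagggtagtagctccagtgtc

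AHP6 was low in the miR165a cells of both layers. Its level was 18.7 in epidermal miR165a, 71.6 in epidermal REV and 68.2 in epidermal gap cells, and 9.23 in subepidermal miR165a, 30.1 in subepidermal REV and 28.7 in all negative cells. REV and marker-free cells of a layer lay close together, with implied differences of 0.07 ± 0.36 in the epidermis and 0.07 ± 0.39 below it. The FC of epidermal miR165a cells was -1.94 ± 0.40 against REV (adjusted p = 1.05e-05) and -1.87 ± 0.40 against gap cells (adjusted p = 8.93e-05), by the authors' Wald test in DESeq2. Below the epidermis the FC of miR165a cells was -1.70 ± 0.43 against REV (adjusted p = 0.00102) and -1.64 ± 0.43 against all negative cells (adjusted p = 0.00893) in the same test. AHP6 was also higher in epidermal than in subepidermal REV cells by 1.25 ± 0.38 and in gap than in all negative cells by 1.25 ± 0.38. In the miR165a domain the implied difference between the layers was 1.02 ± 0.46 and was not listed. The crossed FCs were 2.96 ± 0.42 for epidermal REV against subepidermal miR165a, 1.32 ± 0.38 for epidermal REV against all negative, 2.89 ± 0.42 for gap against subepidermal miR165a and 1.18 ± 0.38 for gap against subepidermal REV cells.

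AHP1, which carries the histidine and passes the signal on, was higher below the epidermis. Its level was 7.67 in epidermal miR165a, 3.15 in epidermal REV and 6.07 in epidermal gap cells, and 22.3 in subepidermal miR165a, 12.2 in subepidermal REV and 28.1 in all negative cells. REV cells were the lowest in each layer, and no pair within a layer was listed in the fit on all populations. In the fit on 2 populations alone, subepidermal REV cells were lower than all negative cells at -1.42 ± 0.50 (adjusted p = 0.0377 by the authors' Wald test in DESeq2). Epidermal REV cells stood at -1.96 ± 0.64 against subepidermal REV, -2.83 ± 0.63 against subepidermal miR165a and -3.16 ± 0.63 against all negative cells. Gap cells stood at -2.21 ± 0.61 against all negative and -1.88 ± 0.61 against subepidermal miR165a cells, and epidermal miR165a cells at -1.88 ± 0.61 against all negative cells. The remaining pairs between the layers were not listed. The implied FC of epidermal miR165a cells was -1.54 ± 0.62 against subepidermal miR165a and -0.67 ± 0.62 against subepidermal REV cells. That of gap against subepidermal REV cells was -1.01 ± 0.62.

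**Figure D3:**
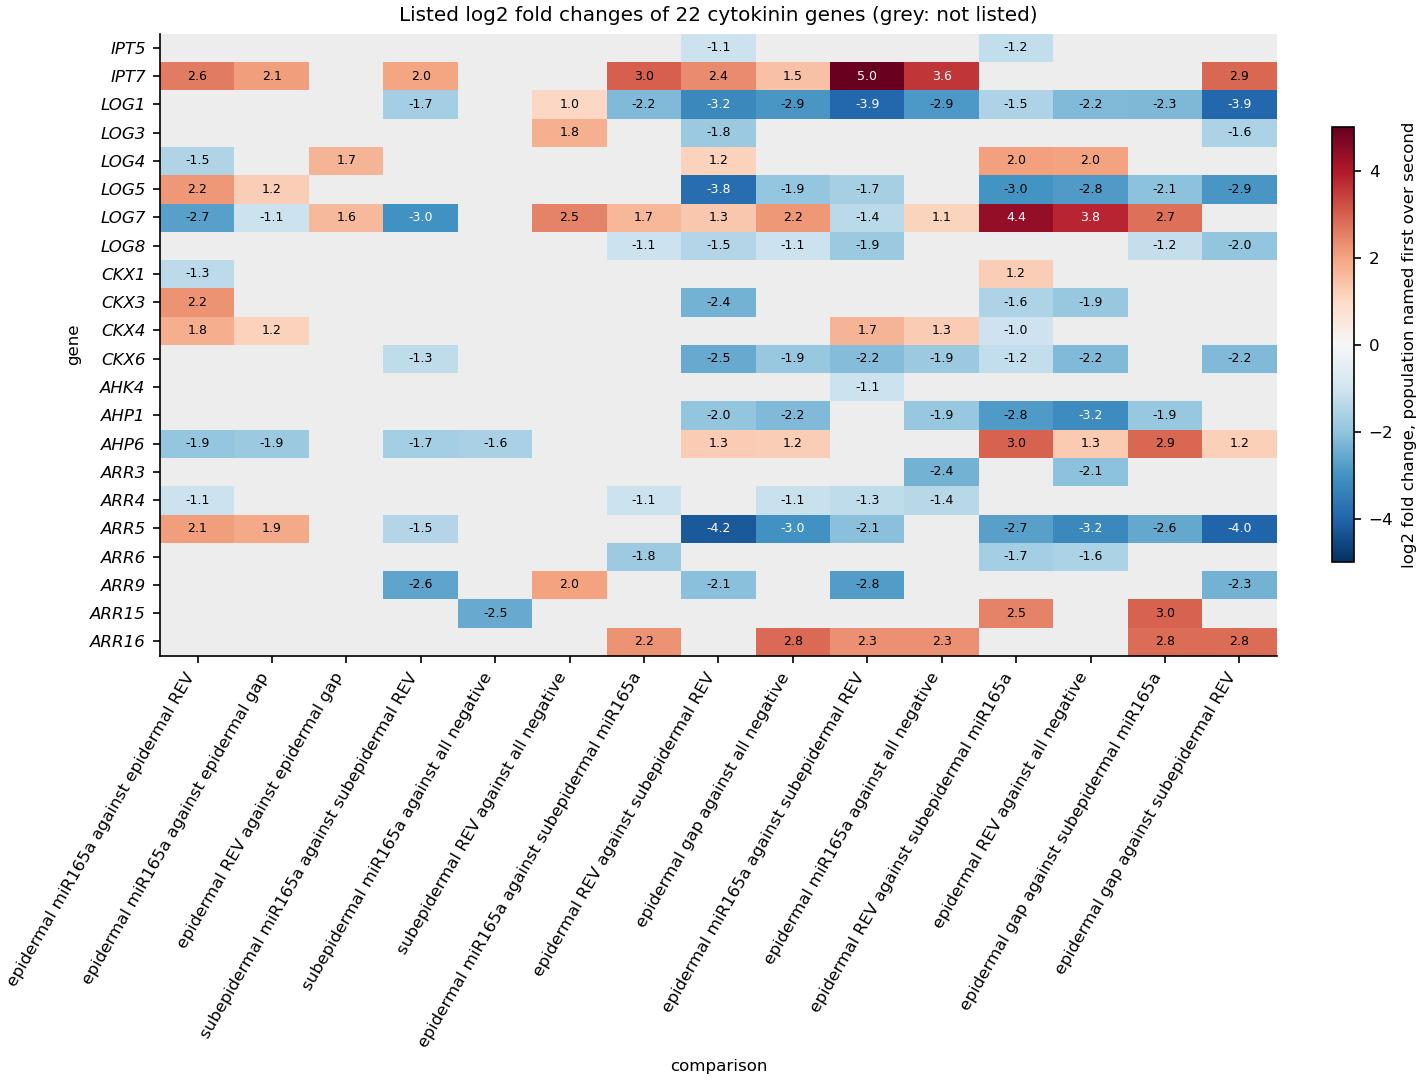
Listed log2 FCs of the 22 cytokinin genes in the 15 comparisons, the population named first over the second; red is higher and blue lower in the population named first, and grey pairs were not listed. LOG7 is listed in 13 comparisons and LOG1 in 11, and the rows of IPT7 and LOG1 hold 1 direction each in every comparison between the layers that lists them.

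Type-A ARRs, early targets and inhibitors of the pathway, had 34 listings over 7 genes and no common direction. ARR5 (AT3G48100) had a level of 8.97 in epidermal miR165a, 2.12 in epidermal REV and 2.39 in epidermal gap cells, and 14.0 in subepidermal miR165a, 38.7 in subepidermal REV and 19.5 in all negative cells. In the epidermis the miR165a cells were highest, whereas below it the REV cells were. The FC of miR165a against REV cells was 2.08 ± 0.60 in the epidermis (adjusted p = 0.00257) and -1.46 ± 0.47 below it (adjusted p = 0.0128) by the authors' Wald test in DESeq2. Against gap cells it was 1.91 ± 0.59 in epidermal miR165a cells. Epidermal REV cells were 18.3-fold lower than subepidermal REV cells, with a FC of -4.19 ± 0.57, and stood at -2.73 ± 0.58 against subepidermal miR165a and -3.20 ± 0.58 against all negative cells. Gap cells stood at -3.03 ± 0.56 against all negative, -2.55 ± 0.57 against subepidermal miR165a and -4.01 ± 0.55 against subepidermal REV cells. Epidermal miR165a cells stood at -2.11 ± 0.50 against subepidermal REV cells. Its epidermal levels rest on few reads and depend on the fit. In the fit on epidermal miR165a and REV cells alone the level was 7.95 in miR165a and 1.09 in REV cells, with a FC of 2.87 ± 1.07, a fold over 1.5 times that of the fit on all populations.

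ARR9 (AT3G57040) marked subepidermal REV cells. Its level was 9.09 in epidermal miR165a, 14.7 in epidermal REV and 12.3 in epidermal gap cells, and 9.96 in subepidermal miR165a, 62.5 in subepidermal REV and 15.4 in all negative cells. All 5 calls set subepidermal REV cells above another population. Subepidermal miR165a cells stood at -2.65 ± 0.44 against them (adjusted p = 6.66e-08) and they exceeded all negative cells by 2.02 ± 0.42 (adjusted p = 4.62e-05), in the authors' Wald test in DESeq2. Against the same cells epidermal REV stood at -2.09 ± 0.42, epidermal miR165a at -2.78 ± 0.46 and gap cells at -2.35 ± 0.42. ARR9 overlaps another annotated gene (AT3G08825).

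ARR4 (AT1G10470) was lowest in epidermal miR165a cells. Its level was 23.9 in epidermal miR165a, 50.2 in epidermal REV and 29.0 in epidermal gap cells, and 50.5 in subepidermal miR165a, 57.2 in subepidermal REV and 62.7 in all negative cells. Epidermal miR165a cells stood at -1.07 ± 0.32 against epidermal REV, -1.08 ± 0.32 against subepidermal miR165a, -1.26 ± 0.32 against subepidermal REV and -1.39 ± 0.32 against all negative cells. Gap cells stood at -1.11 ± 0.29 against all negative cells. Between epidermal miR165a and gap cells the implied FC was -0.28, with no call and no SE. Within the epidermis ARR4 and ARR5 thus went in opposite directions between miR165a and REV cells.

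ARR16 (AT2G40670) was higher in the epidermis. Its mean over all populations was 2.89 normalized reads, and the listed pairs do not link it to epidermal REV cells. Epidermal miR165a cells exceeded subepidermal miR165a cells by 2.25 ± 0.72, subepidermal REV cells by 2.27 ± 0.72 and all negative cells by 2.29 ± 0.72. Gap cells exceeded all negative cells by 2.83 ± 0.72, subepidermal miR165a cells by 2.79 ± 0.72 and subepidermal REV cells by 2.81 ± 0.72 (adjusted p = 0.000827 by the authors' Wald test in DESeq2). ARR3, ARR6 and ARR15 also had means of 3.73, 3.86 and 5.21. ARR15 (AT1G74890) was low in subepidermal miR165a cells in each of its 3 calls, the largest being 2.95 ± 0.68 for gap against subepidermal miR165a cells. The largest FC of ARR3 (AT1G59940) was -2.37 ± 0.72 for epidermal miR165a against all negative cells, and that of ARR6 (AT5G62920) was -1.80 ± 0.67 for epidermal miR165a against subepidermal miR165a cells. ARR6 overlaps a gene on the other strand (AT5G62910).

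The difference between the layers in the contrast of domains was tested for the genes with a FC and SE in both layers, by a two-sided z test with Benjamini-Hochberg adjustment over all such genes. For miR165a against REV cells 8 cytokinin genes could be tested and 3 passed, beside 50.6% of 2269 genes, which had all been listed often enough to have such values. LOG5 had -0.83 ± 0.22 in the subepidermis and 2.15 ± 0.23 in the epidermis, a subepidermal minus epidermal difference of -2.98 ± 0.32 (adjusted p = 4.00e-19). ARR5 differed by -3.55 ± 0.76 (adjusted p = 1.92e-05) and turned its direction between the layers. CKX6 differed by -1.62 ± 0.31 (adjusted p = 1.22e-06), with -1.28 ± 0.21 in the subepidermis and an implied 0.34 ± 0.23 in the epidermis. The domain contrast of LOG7 differed by -0.34 ± 0.35, that of AHP6 by 0.23 ± 0.59, that of IPT7 by -0.63 ± 0.83 and that of CKX4 by -0.88 ± 0.53, and none of these 4 passed. LOG1 did not pass either (adjusted p = 0.0726 by the z test), with -1.69 ± 0.30 in the subepidermis and -0.68 ± 0.39 in the epidermis.

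For miR165a against marker-free cells the same 3 of 8 genes passed, beside 35.0% of 1803 genes. LOG5 differed by -1.11 ± 0.32, CKX6 by -1.02 ± 0.31 and ARR5 by -2.38 ± 0.76 (adjusted p = 0.00815 by the z test). For REV against marker-free cells 2 of 7 genes passed, beside 32.2% of 1903 genes. LOG5 differed by 1.88 ± 0.32, since subepidermal REV cells were at 0.96 ± 0.22 against all negative cells and epidermal REV cells at -0.91 ± 0.23 against gap cells. LOG7 differed by 0.84 ± 0.34 (adjusted p = 0.0421 by the z test), with the larger FC below the epidermis. With SEs 1.5 times as large, none of the 3 genes passed for miR165a against marker-free cells, and LOG7 did not pass for REV against marker-free cells. The 3 contrasts share libraries and are not independent of each other.

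**Figure D4:**
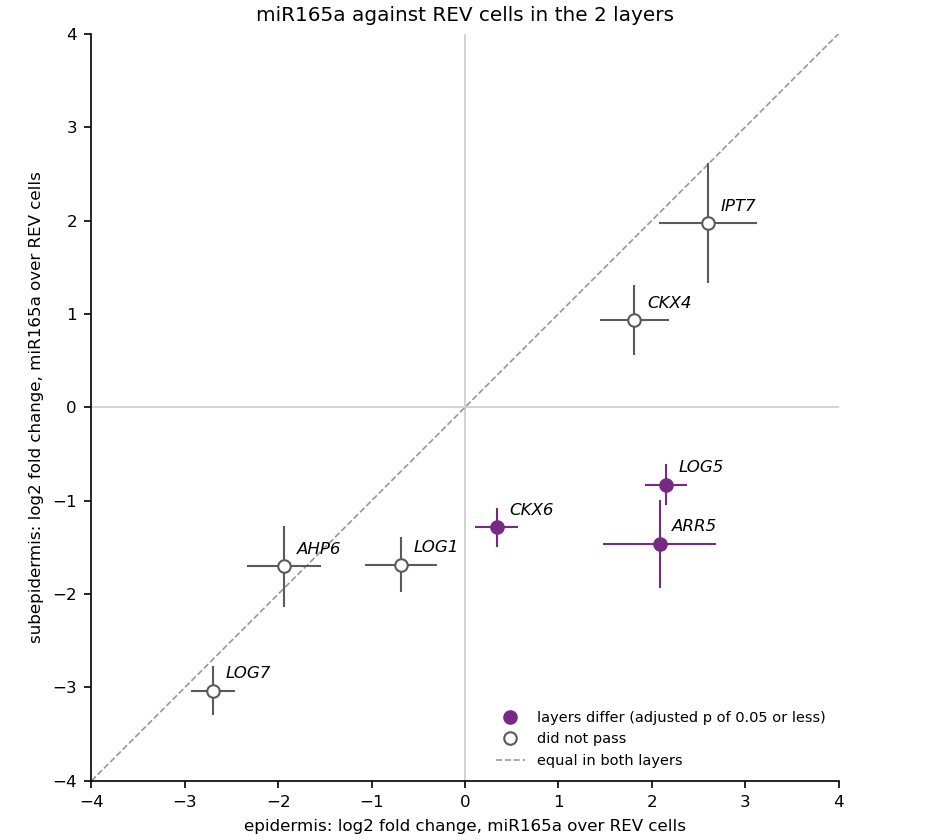
Log2 FC of miR165a over REV cells in the epidermis (x axis) and in the subepidermis (y axis) for the 8 cytokinin genes with a SE in both layers; bars show 1 SE and filled points differed between the layers. LOG7, AHP6, IPT7, CKX4 and LOG1 have the same sign in both layers, while ARR5 and LOG5 lie at -1.46 and -0.83 in the subepidermis and at 2.08 and 2.15 in the epidermis.

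Other genes of the pathway were taken from lists by their function. Of the type-B response regulators, the activators that AHP proteins feed, 2 of 7 stood in the tables. RR2 (AT4G16110) was lower in epidermal than in subepidermal REV cells at -1.15 ± 0.21, and RR10 (AT4G31920) at -1.04 ± 0.14, and neither was called within a layer. Of the cytokinin response factors 4 of 6 stood in the tables, and CRF3 (AT5G53290) had 10 calls. Its level was 22.5 in epidermal miR165a, 22.6 in epidermal REV and 26.9 in epidermal gap cells, and 5.36 in subepidermal miR165a, 48.3 in subepidermal REV and 6.42 in all negative cells. Like ARR9 it stood highest in subepidermal REV cells, with -3.17 ± 0.45 for subepidermal miR165a against subepidermal REV cells (adjusted p = 9.33e-11 by the authors' Wald test in DESeq2). CRF1, CRF4 and CRF5 had 4, 2 and 2 calls.

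Among KMD F-box proteins, which target type-B response regulators for breakdown, 3 of 4 stood in the tables. All 3 were higher in epidermal miR165a than in epidermal REV cells, beside 29.4% of all genes. Their FCs were 2.65 ± 0.30 for AT1G15670, 2.22 ± 0.52 for AT1G80440 and 1.71 ± 0.45 for AT2G44130. In subepidermal miR165a against subepidermal REV cells AT1G15670 was higher at 1.45 ± 0.29 and AT1G80440 at 1.38 ± 0.52, while AT2G44130 was lower at -1.59 ± 0.44. Of 5 transport genes 4 stood in the tables, and all 4 were higher in epidermal miR165a than in epidermal REV cells, beside 29.4% of all genes. The purine permease PUP7 (AT4G18197) stood at 4.21 ± 0.26 in that comparison and was also higher in miR165a than REV cells below the epidermis (adjusted p = 2.58e-28 by the authors' Wald test in DESeq2). In the epidermal comparison PUP1 (AT1G28230) stood at 3.56 ± 0.55, PUP14 (AT1G19770) at 1.33 ± 0.13 and ABCG14 (AT1G31770), an exporter known to carry cytokinin from root to shoot, at 1.12 ± 0.24. Below the epidermis ABCG14 was lower in miR165a than in REV cells, at -1.65 ± 0.23. Of the cytokinin glucosyltransferases, UGT76C2 (AT5G05860) was called only between epidermal and subepidermal populations, with 8 calls all higher in the epidermis, for example 1.77 ± 0.26 in epidermal against subepidermal REV cells, and UGT76C1 (AT5G05870) had 5 calls. The hydroxylases CYP735A1 and CYP735A2, 5 other synthesis genes and 3 genes of type-C response regulators and CKI1 stood in no table.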

How the data were processed

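The authors used FastQC for read quality, cutadapt for trimming, TopHat with the TAIR10 genome for alignment, HTSeq for counts over exons and DESeq2 for the comparisons, none with a stated version. The deposited tables (19) hold, for genes past the limits, a signal, the mean normalized count over libraries, a log2 fold change, its standard error, a score (the Wald statistic) and p-values, raw and adjusted by the Benjamini-Hochberg method, all by the authors. They are the authors' own comparisons and, with no counts per library, were the values analysed. Of the 19 tables, 15 came from 1 fit on all 6 populations and 4 from fits on 2. In the 15, fold changes added up around 6738 triangles to within 1.15e-14. Their standard errors all stop near 0.729, against 1.549 in the fits on 2 populations, whose fold changes were 1.039 to 1.055 times larger in the median, so sizes depend on the fit, and whether the fold changes were shrunk is not stated. Variances of listed pairs were split by population (median misfit 0.00682%), which gave levels and implied fold changes with Python 3.11.15 and pandas 2.3.3. The steps were tested on simulated data. Genes listed in 5 or more comparisons, 14 of 22, are given with their fold changes, and others by their largest. The members and lists were chosen with earlier results of these data known. Sequences came from RefSeq TAIR10.1 and were read with Biopython 1.88. Stricter limits, larger standard errors, a minimum mean count and the fits on 2 populations were tried as alternatives. Depth per library is unknown from the tables.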

Additional observations from a re-analysis of the deposited data

Results flagged for a closer look

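In 8 cases the contrast of domains in a cytokinin gene differed between the layers by the z test on 2 fold changes, each given as subepidermal minus epidermal log2 fold change. For miR165a against REV cells, these were LOG5 at -2.98, ARR5 at -3.55 and CKX6 at -1.62. For miR165a against marker-free cells, the same genes were at -1.11, -2.38 and -1.02. For REV against marker-free cells, LOG5 was at 1.88 and LOG7 at 0.84. The 3 contrasts share libraries, so the 8 values are not independent of each other. The cytokinin genes that passed were 3 of 8, 3 of 8 and 2 of 7, beside 50.6%, 35.0% and 32.2% of all genes tested in the 3 contrasts, shares near or below the background.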

How the results depend on the processing

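Of the alternatives only the fits on 2 populations, which exist for 4 pairs, gave new fold changes. The cytokinin fold changes listed in both fits kept their direction. Both fits share libraries and list only genes past the limits, so a reversal was hardly possible and the kept direction shows little. Every other alternative reuses the same fold changes, so no reversal was possible there. A mean normalized count of at least 50 left 7 of the 22 cytokinin genes to count, and the share of all genes called at that setting is given in brackets. Counts called fell to 3 in epidermal miR165a against epidermal REV (49.6%), 2 against gap (14.5%), 3 in subepidermal miR165a against subepidermal REV (23.5%), 0 in subepidermal miR165a against all negative (3.55%) and 2 in subepidermal REV against all negative cells (16.4%). Between the layers that left 3 in the miR165a domain (25.7%), 6 in the REV domain (46.8%) and 5 in gap against all negative cells (37.1%). In the crossed pairs it left 6 (36.6%) and 3 (28.2%) for epidermal miR165a against subepidermal REV and all negative, 5 (67.5%) and 5 (69.9%) for epidermal REV against subepidermal miR165a and all negative, and 4 (37.9%) and 4 (32.2%) for gap against subepidermal miR165a and subepidermal REV cells. A log2 limit of 1.5 gave 3 in epidermal miR165a against gap, 9 in epidermal against subepidermal REV and 7 in gap against all negative cells, and an adjusted p limit of 0.01 gave 1 in subepidermal miR165a against all negative cells. These fall by construction, since fewer genes are counted. The share of all genes called at the log2 limit of 1.5 or the adjusted p limit of 0.01 was not computed. Whether the cytokinin genes fell more or less than all genes at these limits is therefore not known. With standard errors 1.5 times as large, 0 differences between layers passed for miR165a against marker-free cells and 1, LOG5, for REV against marker-free cells. With only fold changes listed in both layers, 1, 0 and 0 genes passed in the 3 contrasts. In the fits on 2 populations IPT7 lost its call in subepidermal miR165a against subepidermal REV cells and CKX1 its call in epidermal miR165a against epidermal REV cells, while LOG3 and AHP1 gained 1 each. In the epidermal comparison the log2 fold changes of ARR5 and CKX3 were 2.87 and 2.86 there, against 2.08 and 2.25 in the fit on all populations. No paired analysis was possible because the tables hold no values per library, and for the same reason no replicate could be left out.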
